A study of Arabidopsis thaliana with 4 samples.

Results

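The regulators that give a flower its identity were followed in vegetative tissue of *Arabidopsis*. They are *LEAFY* (*LFY*, AT5G61850), *APETALA1* (*AP1*, AT1G69120), *CAULIFLOWER* (*CAL*, AT1G26310), *APETALA3* (*AP3*, AT3G54340), *PISTILLATA* (*PI*, AT5G20240), *AGAMOUS* (*AG*, AT4G18960) and the *SEPALLATA* genes *SEP1* (AT5G15800), *SEP2* (AT3G02310), *SEP3* (AT1G24260) and *SEP4* (AT2G03710). The members were chosen by locus, and all 10 of the 10 listed loci are on the array with 1 probe and 1 spot each, among 25665 loci in all. Expression was measured on 4 one-colour 44 k arrays, 2 from meristem-enriched tissue and 2 from whole young leaves. All plants carried the *clv3-9* allele, a point mutation in the coding region of *CLV3* in the Columbia background, were 9 weeks old and were kept on soil in short days, with light for 8 h and darkness for 16 h. The mutation disrupts CLV3, the peptide that restricts the stem cell pool, and plants with it form an enlarged meristem that was cut out by hand. Both tissues carry it, and no wild type arrays are part of the comparison. How many plants were pooled for a sample is not given in the sources used here.

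In the floral transition, LFY, a plant-specific transcription factor, and the closely related MADS-box proteins AP1 and CAL turn a lateral outgrowth of the shoot into a flower. Within the flower, MADS-box proteins act in combinations: AP1 with SEPALLATA proteins in sepals, AP3 and PI (the B function) in petals and stamens, and AG (the C function) in stamens and carpels, where it also ends stem cell activity. The SEPALLATA proteins (the E function) join each of these complexes. In vegetative tissue many of these genes are known targets of Polycomb repression. The comparison asks how far transcript levels of each gene differed between the shoot apex and young leaves of plants in short days. The positions of the probes are given below as the array files write them, with no genome build named, and a position that runs from high to low is left in that order.

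*LFY*, *AP1* and *CAL* rose most in the meristem, and *PI* rose less. *SEP2* and *SEP1* rose by smaller amounts. *AP3*, *AG*, *SEP3* and *SEP4* did not pass the test. In numbers, 6 of 10 genes passed an adjusted p of at most 0.05 towards the meristem (limma, Benjamini-Hochberg method across the 23259 loci tested), against 27.1% of all loci tested. A difference of at least 4-fold in addition was reached by 4 of 10 genes, against 6.55% of all loci. None passed towards the leaf, where 21.6% of all loci passed by adjusted p and 6.41% with a 4-fold difference as well. At an unadjusted p of at most 0.05 the count towards the leaf was 0 as well, by limma and by the methods' t-test. By limma, 7 genes passed towards the meristem at that level. Of all 23259 loci tested, 13144 passed it in either direction by limma and 10666 by the t-test. With scaling to the median, or with an intensity trend in limma, the unadjusted count towards the leaf was 1. These settings passed 13337 and 13820 of all loci in either direction. The median log2 difference of the 10 genes, meristem minus leaf, was 1.01, and that of all loci tested was 0.10.

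**Figure D1:**
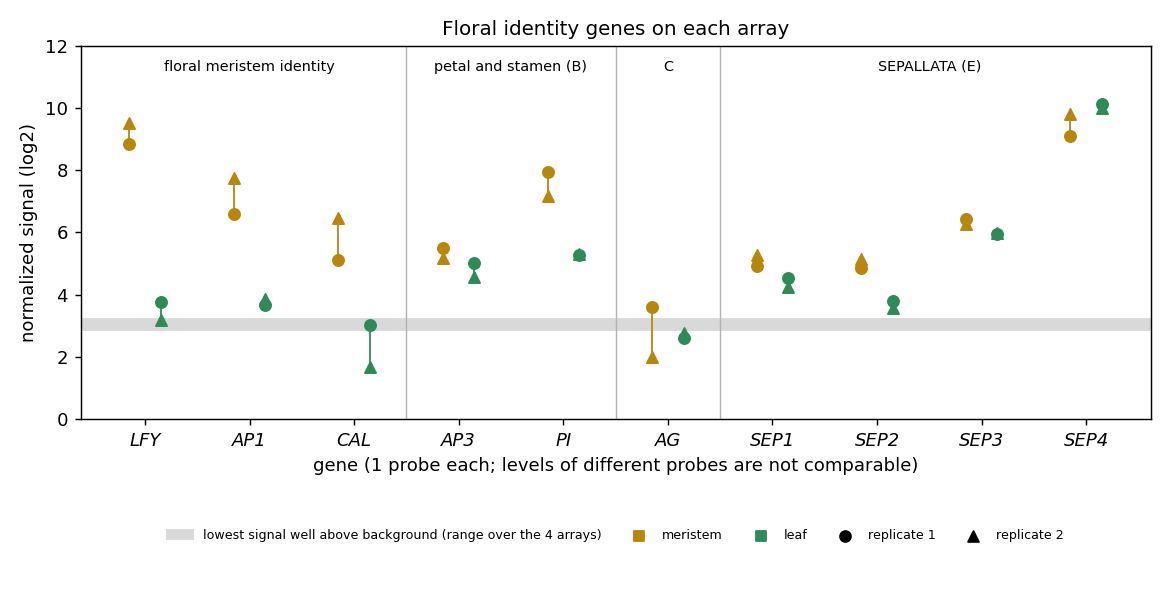
Normalized log2 signal of the 10 genes on each of the 4 arrays, grouped by role. Circles are replicate 1 and triangles replicate 2, and the grey band is the range over the arrays of the lowest signal well above background (2.87 to 3.22). The meristem points of *LFY*, *AP1* and *CAL* lie far above their leaf points. The points of *AG* lie on both sides of the band, and *SEP4* is the gene whose leaf points lie above its meristem points.

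Signals are given as log2 of the scanner's processed intensity after scaling each array to its 75th percentile, which was 874 and 978 units in the meristem and 606 and 794 in the leaf. A signal well above background, as flagged by the scanner software, was found on both meristem arrays for 9 of 10 genes. On both leaf arrays it was found for 7 of 10. Of all 25665 loci, 19520 had it on both meristem arrays and 19022 on both leaf arrays. Each probe has its own affinity, so levels were compared between arrays for 1 gene and never between genes. Permuting 2 arrays against 2 exactly allows no two-sided p under 0.333, so the p-values below are those of limma, whose estimate of the spread draws on all loci. The submitters call the replicates biological. Both samples of a tissue lie on the same slide as those of the other.

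The identity of the samples was read from other genes. The meristem markers *STM*, *CLV3* and *WUS* summed to 12111 and 18307 background-subtracted units in the meristem, against 99.4 and 138 in the leaf. The leaf markers *RBCS1B*, *LHCB1.4* and *CAB1* summed to 10287 and 6446 units in the meristem and to 316594 and 351897 in the leaf. *CAB1* gave 6167 and 4861 of the meristem units and had a log2 difference of -1.47, against -7.44 for *RBCS1B* and -7.41 for *LHCB1.4*. All 3 were well above background in the meristem samples, and whether these transcripts came from leaf cells was not tested. None of 6 anther markers (*A9*, *ATA7*, *MS1*, *AMS*, *DYT1*, *MS2*) was well above background on any array, and their sum was between 3.25 and 5.96 units. They mark the tapetum, a tissue inside developing anthers, so they do not show whether younger floral tissue without anthers was present. Of 7 vascular markers all were well above background on all arrays, with a sum of 5833 and 9979 units in the meristem against 10034 and 13842 in the leaf, and 3 of the 7 (*XCP1*, *XCP2* and *SUC2*) were lower in the meristem by the test. *SUC2*, a phloem gene, made up the largest part of this sum. The xylem genes *CESA4*, *CESA7* and *CESA8* had log2 differences of 0.49, 0.69 and 0.38 towards the meristem, which did not pass. The part of these cell types in the differences below was not tested. In whole tissue, more cells expressing a gene and more RNA per cell cannot be told apart.

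*LFY*, the main switch to floral fate, was measured by a probe at chr5:24863991-24864050 and gave a background-subtracted signal of 467 and 819 units in the meristem but 9.61 and 8.24 in the leaf. On the normalized log2 scale this was 8.85 and 9.51 against 3.77 and 3.18. The meristem arrays lay far above the leaf arrays, where the signal was well above background on 1 of 2. The log2 difference was 5.70 (SE 0.32, adjusted p = 0.000837, limma), 52.1-fold with a 95% confidence interval of 28.4 to 95.5. Among the 10 genes this was the largest difference in each of the 14 alternative settings, though the adjusted p was 0.127 with normexp background correction, where the difference was 2.44.

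*AP1*, a direct target of LFY and a gene of the A function, was measured by a probe that spans 485 bases at chr1:25986772-25986288 and gave 102 and 255 units in the meristem and 9.24 and 13.8 in the leaf. Its normalized log2 signal was 6.58 and 7.76 against 3.66 and 3.86, and every array read well above background. The groups did not overlap, although the meristem replicates lay 1.18 apart. The log2 difference was 3.41 (SE 0.43, adjusted p = 0.00484, limma), 10.7-fold with a 95% confidence interval of 4.79 to 23.7. The log2 difference was 2.82 without meristem replicate 2 and larger without meristem replicate 1, and it passed in both fits. The call was lost with normexp (1.07, adjusted p = 0.365, limma). It was also lost with the methods' t-test after adjustment over all loci (adjusted p = 0.0787), an adjustment that the methods do not name.

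*CAL*, the close relative of *AP1* with an overlapping function, had normalized log2 signals of 5.12 and 6.47 in the meristem (probe at chr1:9100385-9100326). The leaf arrays read 3.03 and 1.66, and neither was well above background, so the leaf level is only bounded. Set against the dimmest signal that each leaf array still resolved, the meristem level of *CAL* was at least 6.60-fold higher (adjusted p = 0.0163, limma). The call was lost with normexp and with the methods' t-test after adjustment over all loci. The probe sequences were not used here, and a share of *AP1* transcripts in the signal of *CAL*, or the reverse, was not tested.

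**Figure D2:**
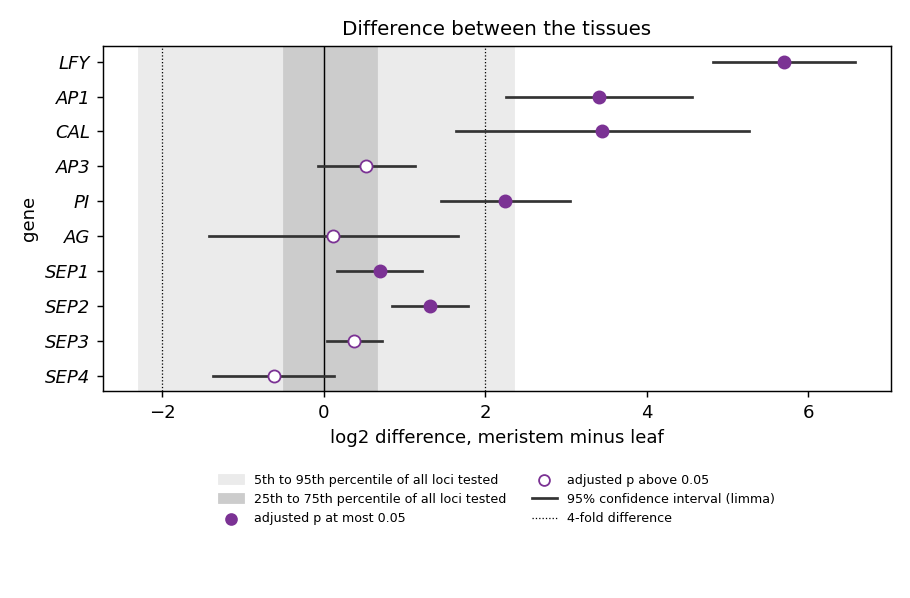
Log2 difference between the tissues, meristem minus leaf, for the 10 genes, with limma's 95% confidence interval. Filled points have an adjusted p of at most 0.05, and the shaded spans hold the middle of all 23259 loci tested (25th to 75th percentile, -0.49 to 0.66, and 5th to 95th percentile, -2.29 to 2.36). The point of *CAL* is the fitted value, although its leaf level is only bounded. *LFY*, *AP1* and *CAL* lie beyond the 95th percentile, and *SEP4* is the lowest of the 10.

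The B function requires AP3 and PI together, since the proteins act as a heterodimer. *PI* had normalized log2 signals of 7.95 and 7.16 in the meristem against 5.28 and 5.32 in the leaf, all well above background (probe at chr5:6831113-6831172). The meristem arrays lay clearly above the leaf arrays, with a log2 difference of 2.25 (SE 0.29, adjusted p = 0.00550, limma), 4.76-fold with a 95% confidence interval of 2.74 to 8.27. The size is near the 4-fold threshold: it was 1.95 with scaling to the median and 1.86 without meristem replicate 1, both below it. The call was lost with normexp (0.89, adjusted p = 0.474, limma). It was also lost with the methods' t-test after adjustment over all loci (adjusted p = 0.0789), an adjustment that the methods do not name.

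*AP3* (probe at chr3:20130553-20130494) gave normalized log2 signals of 5.50 and 5.17 in the meristem against 5.02 and 4.58 in the leaf. All 4 arrays were well above background and the meristem arrays were the higher ones, by a small margin. The log2 difference of 0.53 did not pass the test (SE 0.22, 95% confidence interval -0.07 to 1.13, adjusted p = 0.118, limma). The corresponding interval of *PI* was 1.45 to 3.05, and the difference between *PI* and *AP3* itself was not tested. *AP3* passed without scaling between arrays (0.94, adjusted p = 0.0281, limma), where the median of all loci was 0.51. Its difference was 0.23 with scaling to the median and -0.025 with normexp, and neither passed.

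*AG*, which specifies stamens and carpels, was close to the limit of measurement. Its probe, at chr4:10388051-10388110, gave a normalized log2 signal of 3.60 and 1.99 in the meristem against 2.60 and 2.76 in the leaf, and it was well above background on meristem replicate 1 alone. The background-subtracted signals behind these values were 12.4 and 4.51 units against 4.32 and 6.23. The leaf arrays lay between the meristem arrays, so the groups overlapped. The log2 difference was 0.12 (95% confidence interval -1.42 to 1.66, adjusted p = 0.876, limma). The sign turned with the meristem array that was left out: the difference was -0.69 without replicate 1, when no remaining array read *AG* well above background, and 0.93 without replicate 2. Both fits passed the threshold, but they hold 1 meristem array, which is assumed to vary like the leaf pair, and so close to the background no size or direction is drawn from them.

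Among the SEPALLATA genes, *SEP2* showed the clearest difference. It gave normalized log2 signals of 4.86 and 5.15 in the meristem against 3.81 and 3.57 in the leaf, all well above background, from a probe that spans 296 bases at chr3:464927-464632. The log2 difference of 1.32 (SE 0.17, adjusted p = 0.00562, limma) corresponds to 2.49-fold, with a 95% confidence interval of 1.80 to 3.45. It passed the test in 12 of 14 alternatives. Those it failed were normexp background correction and the methods' t-test after adjustment over all loci.

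*SEP1*, which is nearly interchangeable with *SEP2* in flower development, read 4.91 and 5.27 in the meristem against 4.53 and 4.25 in the leaf (probe at chr5:5151504-5151445). The log2 difference was 0.70 (SE 0.19, adjusted p = 0.0437, limma), 1.62-fold, with the groups close but not overlapping. This call was lost in 9 of 14 alternatives, among them scaling to the median (0.40, adjusted p = 0.185, limma) and leaving out meristem replicate 2 (0.52, adjusted p = 0.110), leaf replicate 1 (0.83, adjusted p = 0.0762) or leaf replicate 2 (0.56, adjusted p = 0.174).

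*SEP3*, which can bring B and C proteins into one complex, gave 6.43 and 6.27 in the meristem against 5.97 and 5.97 in the leaf (probe at chr1:8593868-8593809). The replicates were tight and the meristem arrays were slightly higher. The log2 difference was 0.38 (SE 0.13, 95% confidence interval 0.04 to 0.73, adjusted p = 0.0689, limma). The upper end of this interval corresponds to 1.66-fold. When only loci well above background in a tissue were tested, *SEP3* passed (adjusted p = 0.0475, limma), the 1 alternative of 14 in which it did. Its log2 difference was 0.80 without scaling between arrays, 0.10 with quantile normalization, 0.086 with scaling to the median and 0.0010 with normexp.

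*SEP4*, known as the member of the family that is also transcribed outside flowers, was the exception in direction. Its probe at chr2:1131549-1131608 gave 616 and 1147 background-subtracted units in the meristem against 904 and 1062 in the leaf, or 9.10 and 9.82 against 10.14 and 10.01 on the normalized log2 scale. Both leaf arrays were above both meristem arrays, by a margin smaller than the distance between the meristem replicates. The log2 difference of -0.62 did not pass the test (SE 0.28, 95% confidence interval -1.37 to 0.13, adjusted p = 0.135, limma). With scaling to the median it was -0.92, with an unadjusted p of 0.0312 and an adjusted p of 0.0620 (limma). Without meristem replicate 2 it was -0.98 (adjusted p = 0.0159, limma) and without meristem replicate 1 it was -0.26 (adjusted p = 0.254, limma), each with a single meristem array that is assumed to vary like the leaf pair.

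Across the 10 genes, both meristem arrays were above both leaf arrays for 8, against 43.8% of all loci tested. For 1 gene, *SEP4*, both were below, against 35.5% of all loci. The share in the first direction is above that of all loci, while the intervals of *AP3*, *AG* and *SEP4* include 0.

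The meristem replicates differed more than the leaf replicates for 8 of 10 genes. Over all loci tested the meristem replicates also lay farther apart, with a median distance of 0.20 on the log2 scale against 0.15 in the leaf. The 90th percentile was 0.70 in the meristem and 0.49 in the leaf. In the meristem *AG*, *CAL*, *AP1*, *PI* and *SEP4* lay farther apart than 0.70, at 1.62, 1.35, 1.18, 0.79 and 0.72. The direction was not common to them. *LFY*, *AP1*, *CAL*, *SEP1*, *SEP2* and *SEP4*, 6 genes, were higher on meristem replicate 2, and the others on replicate 1. Genes of secondary cell walls in xylem (*CESA4*, *CESA7* and *CESA8*) were higher on meristem replicate 2 by at least 1.01, and *LHCB1.4* differed there by -1.74. Their part in the spread of the floral genes was not tested. In the leaf, the replicates of *CAL* lay 1.37 apart, both below the level that counts as well above background.

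**Figure D3:**
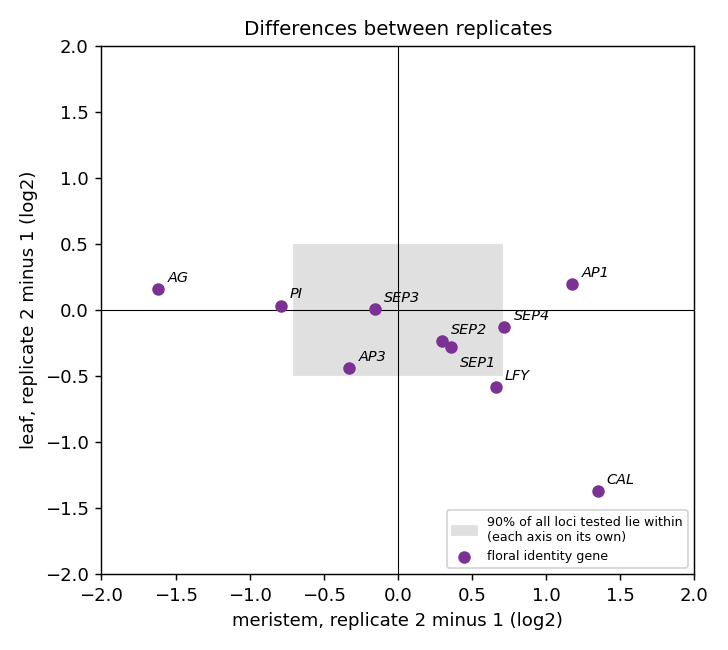
Replicate 2 minus replicate 1 on the log2 scale, in the meristem (horizontal) and in the leaf (vertical), for the 10 genes. The grey area spans on each axis the 90th percentile of the distance over all loci tested (0.70 and 0.49). *AP1*, *CAL* and *SEP4* lie to the right of it, *PI* and *AG* to the left, and *CAL* and *LFY* below it.

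Genes acting with or on the 10 regulators were described from 3 lists of 43 genes in all. At an adjusted p of at most 0.05 (limma), 26 rose in the meristem and 3 fell, beside 27.1% and 21.6% of all loci tested. A 4-fold rise as well was reached by 6.55% of all loci, and these shares are the background for the counts of each list. The first list holds 16 other genes of floral organs and carpels, with a median log2 difference of 2.18. Among these 16 genes 10 rose in the meristem (27.1% of all loci), 9 of them by at least 4-fold (6.55% of all loci), and 2 fell (21.6% of all loci). *UFO*, the F-box protein that works with LFY to activate *AP3*, had normalized log2 signals of 8.16 and 8.30 in the meristem. In the leaf, at 2.81 and 2.12, it was not well above background, so the meristem level was at least 35.7-fold higher (adjusted p = 0.000642, limma). *PAN*, a bZIP protein that sets organ number and takes part in activating *AG*, was 53.4-fold higher (log2 difference 5.74, SE 0.24, adjusted p = 0.000578, limma). *JAG*, a zinc finger protein of organ growth, was at least 15.4-fold higher (adjusted p = 0.000464, limma). The genes higher in the leaf were *STK* and *NZZ*, named after their values were seen; they were well above background on 1 and on 0 of the leaf arrays, and no fold is given for them. *AP2*, the other gene of the A function and also named after its values were seen, read 10.37 and 10.42 in the meristem against 9.09 and 9.27 in the leaf.

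The upstream regulators of flowering made up the second list of 16 genes, with a median log2 difference of 1.28. In it 9 of 16 rose in the meristem (27.1% of all loci), 4 of them by at least 4-fold (6.55% of all loci), and 1 fell (21.6% of all loci). *TFL1*, which represses *LFY* and *AP1* in the shoot meristem, gave 10.37 and 10.57 in the meristem against 5.86 and 5.68 in the leaf, a log2 difference of 4.70 (SE 0.15, adjusted p = 0.000464, limma). *LMI1*, a homeodomain protein downstream of LFY that activates *CAL*, was 13.5-fold higher in the meristem (log2 difference 3.76, SE 0.12, adjusted p = 0.000464, limma). *BOP1*, which promotes the expression of *AP1*, was at least 18.4-fold higher (adjusted p = 0.000464, limma). The gene that fell was *FT*, the mobile flowering signal made in leaves, which none of the arrays showed well above background, so no fold is given for it. *TSF*, the closest relative of *FT*, was well above background on meristem replicate 2 alone, at 5.65 against 2.56 on replicate 1. *FT* and *TSF* were singled out after their values were seen.

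**Figure D4:**
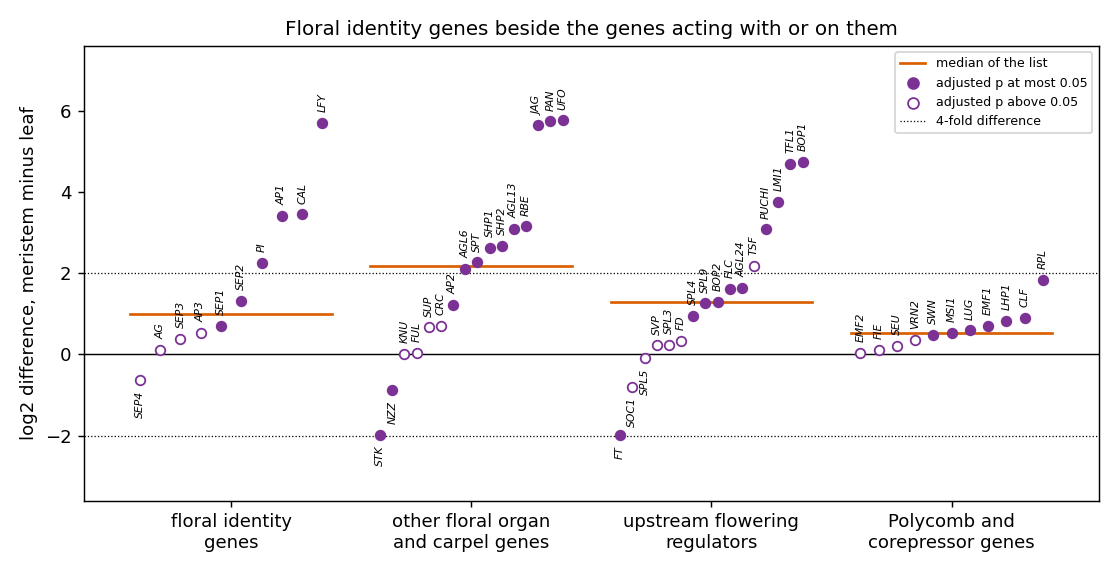
Log2 difference between the tissues for the 10 floral identity genes and the 3 lists of 16, 16 and 11 genes acting with or on them, each in order of size. Filled points have an adjusted p of at most 0.05 and the horizontal bars are list medians (1.01, 2.18, 1.28 and 0.53). The list of Polycomb and corepressor genes lies within a narrow span above 0, from 0.04 to 1.83. Its upper end is *RPL*, a homeodomain protein counted with them, and the next is *CLF* at 0.91.

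Repressors of floral genes formed the third list, 11 genes for Polycomb proteins, corepressors and the homeodomain protein RPL. All were well above background on all 4 arrays. Of these 11 genes 7 were higher in the meristem (27.1% of all loci) and none by 4-fold (6.55% of all loci), with a median log2 difference of 0.53. *RPL*, a BELL homeodomain protein that represses *AG*, had the largest difference, 1.83 (SE 0.17, adjusted p = 0.00237, limma). *CLF*, the histone methyltransferase that keeps *AG* silent in leaves, gave 9.40 and 9.09 in the meristem against 8.32 and 8.36 in the leaf, or 0.91 more on the log2 scale (SE 0.16, adjusted p = 0.0117, limma). *LHP1*, which binds the mark that CLF sets, differed by 0.82 (SE 0.19, adjusted p = 0.0253, limma). The count of 7 was 2 with scaling to the median, 0 with normexp, 2 with the methods' t-test, 3 without meristem replicate 2, 1 without leaf replicate 1 and 2 without leaf replicate 2.

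Most of the floral genes were dim, and the size of their differences moved with the treatment of background. With normexp background correction, which keeps an offset of 50 units, none of the 10 genes passed the test (limma, adjusted), 1 of them, *LFY*, had an unadjusted p of at most 0.05, and the differences of *AP1* and *PI* were 1.07 and 0.89. By the methods' t-test with adjustment over all loci, 1 of the 10 genes passed, again *LFY*, and *AP1*, *CAL*, *PI*, *SEP1* and *SEP2* did not. The methods ask for a p of at most 0.05 and name no adjustment. At that unadjusted level the t-test passed 5 of the 10 genes towards the meristem, beside 10666 of all 23259 loci in either direction. The counts of all loci fell as well with normexp, from 6301 to 547 higher in the meristem by adjusted p. In either direction, at an unadjusted p of at most 0.05 (limma), normexp lowered them from 13144 to 6322. The meristem markers *CLV3* (3.16, adjusted p = 0.0623, limma) and *WUS* (1.78, adjusted p = 0.198, limma) did not pass with it either, while *STM* and the leaf markers did. Such an offset shrinks the ratio of a dim gene. The call of *RPL* was lost with normexp too, although its log2 difference of 1.81 was close to the 1.83 of the main setting (adjusted p = 0.0554, limma). Why calls were lost with normexp was not tested, and a lost call does not show that a gene is unchanged. Scaling to the median lowered all differences by the same amount, so that the median of all loci was -0.20 and not 0.10. Relative to the median of all loci, which is the same comparison in both scalings, the log2 difference was 5.61 for *LFY*, 3.32 for *AP1*, 2.16 for *PI*, 1.22 for *SEP2*, 0.60 for *SEP1* and -0.72 for *SEP4*.

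**Figure D5:**
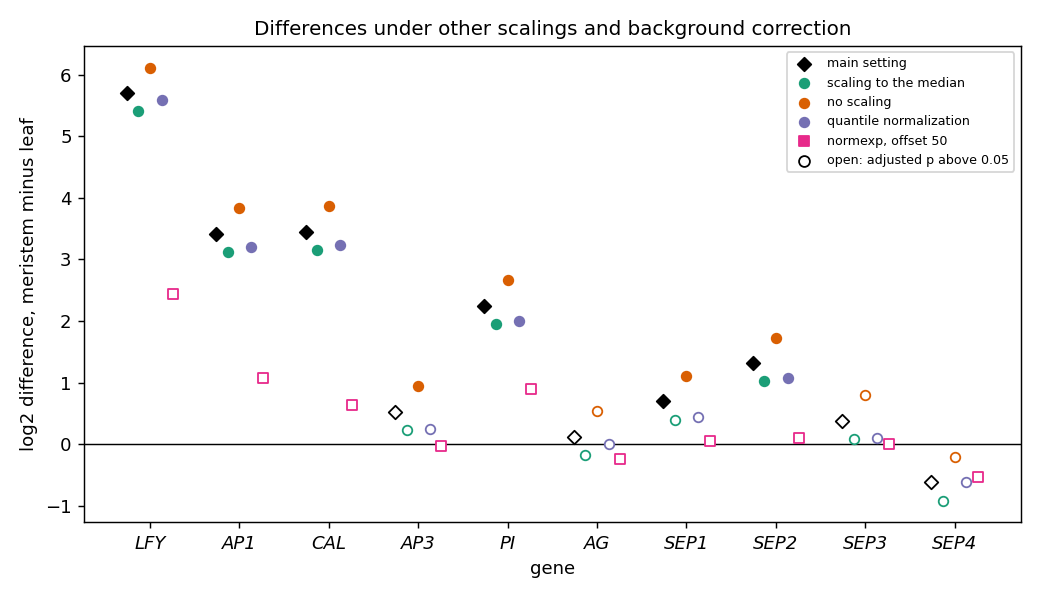
Log2 difference between the tissues for the 10 genes in the main setting and under 3 other scalings and normexp background correction. Open symbols have an adjusted p above 0.05. The order of *LFY* above *AP1*, *CAL* and *PI* holds in all of them, while normexp brings *LFY* from 5.70 to 2.44 and *SEP1*, *SEP2* and *SEP3* to 0.10 or less.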

How the data were processed

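The authors deposited the scanner output of each array (Agilent Feature Extraction 9.5.3.1, 1 channel, Cy3), which holds linear intensities per spot with background subtraction and detrending within the array and no scaling between arrays. The study worked with normalized values from its service provider, and how these were scaled is not given in the sources used here. Control spots were left out, and outlier spots were set to missing (10 to 12 per array). From the deposited intensities, log2 values were taken, and on every array the 75th percentile over all probes was subtracted before the mean of these percentiles was added back. Of 37478 probes, 26236 name 1 of 25665 loci by their systematic name, cut to the locus; the brightest probe stood for a locus. Loci with a background-subtracted signal above 0 on both arrays of a tissue were tested, 23259 in all. Meristem and leaf were set against each other in limma 3.58.1 (R 4.3.3), with Benjamini-Hochberg adjustment over all of these loci and no block. A 4-fold call needed a log2 difference of at least 2 and an adjusted p of at most 0.05. limma's prior spread was 0.158 with 2.26 degrees of freedom. Where neither array of the dimmer tissue read well above background, the fold is a bound, set against the dimmest resolved signal of each of those arrays or the probe's own signal if higher. The bound uses the mean of the brighter tissue without its spread, and an adjusted p beside it is that of the fitted difference. All 4 arrays lie on 1 slide and were scanned together. The number of arrays limits the precision.

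By rule, all 10 members are named, and from each of the 3 other lists up to 3 genes in each direction, the largest differences among those that passed and were well above background in the higher tissue. No gene was named for a pattern like that of a member, since 4 arrays in 2 groups give nothing to rank. The members and lists were chosen with earlier results of these data known. The procedure was tested on simulated data. The alternatives were other scalings, quantile normalization, normexp, other filters, the mean of probes, the methods' t-test, an intensity trend, the replicate number as a block, and leaving out each array.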

Additional observations from a re-analysis of the deposited data

How the results depend on the processing

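Over 14 alternatives, 4 floral genes were called at least 4-fold higher in the meristem except for 3 with scaling to the median, 0 with normexp and 1 with the methods' t-test after adjustment. Leaving out 1 array gave 3 to 4. The 6 genes past the adjusted p threshold became 0 with normexp, 1 with the t-test and 5 to 6 with 1 array left out. Without adjustment the t-test passed 5 and limma 7, beside 10666 and 13144 of all 23259 loci in either direction. Towards the leaf the count of 0 became 1 without meristem replicate 1 (*AG*) and 1 without meristem replicate 2 (*SEP4*), a range of 0 to 1 over the arrays left out. Both fits hold a single meristem array, assumed to vary like the leaf pair, and none of the arrays left in the fit of *AG* read it well above background, so nothing is drawn from that call. The 29 of 43 other genes past the threshold became 4 with normexp, 16 with the t-test and 22 to 28 with 1 array left out. Over all loci the counts towards the meristem and the leaf were 6301 and 5014, 4088 and 6902 with scaling to the median, 7796 and 2836 without scaling, 547 and 1305 with normexp and 2808 and 2802 with the t-test. Without scaling, limma gave the floral genes 1 common SE, so calls in that setting do not rest on the spread of each gene. With a 4-fold difference as well they were 1524 and 1492, 1187 and 1954 with scaling to the median, 2215 and 1031 without scaling, 252 and 655 with normexp and 961 and 1152 with the t-test. Leaving out leaf replicate 1 brought the adjusted counts to 3851 and 3807, and leaving out leaf replicate 2 to 4083 and 3981. *AP3* turned to -0.025 with normexp. *AG* turned to -0.18 with scaling to the median, to -0.0032 with quantile normalization, to -0.24 with normexp and, over the arrays left out, ranged from -0.69 without meristem replicate 1 to 0.93 without meristem replicate 2. The cause of these changes was not tested.

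Tissues share the replicate numbers 1 and 2, and nothing in the labels ties a number to a shared harvest. The differences between replicates correlated at 0.09 between the tissues over all loci tested and at 0.21 over the 18558 loci well above background on all arrays. With the replicate number as a block, 6 floral genes passed towards the meristem and 4 by 4-fold, with *AP3* gained (adjusted p = 0.0453, limma) and *SEP1* lost (adjusted p = 0.0812, limma).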
